A study of Mus musculus with 142 samples.

Results

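Deletions of the promoter of Morc1, made alone or together with a second transcription start site inside the gene, were followed here by the replication timing (RT) of the alleles that carried them. The profiles came from F121-9 cells, a mouse embryonic stem cell line from a musculus by castaneus (CAST) F1 hybrid, in which sequence differences assign each read to its parental allele. The libraries were chosen by the line names BTSS and BTSS.CTSS: 4 libraries of the 66 that had profiles, each from 1 clone, which together gave 8 allele profiles. BTSS stands for a deletion at the start of Morc1 and CTSS for a deletion at a start site near the 3′ end of the gene. Clone A10 (BTSS) carried the B-TSS deletion on its musculus allele and had an unmodified CAST allele. Clones G3 and H11 (BTSS.CTSS) carried both deletions on the musculus allele and had an unmodified CAST allele. Clone C11 (BTSS.CTSS) carried both deletions on the musculus allele and the B-TSS deletion also on its CAST allele. The unmodified CAST alleles of A10, G3 and H11 served as the control alleles (CON, n = 3). The cells were grown in 2i with LIF, labelled with BrdU for 2 h, and sorted into an early and a late S-phase fraction, so that the 4 libraries correspond to 8 samples. RT was the log2 ratio of early to late reads in 50 kb windows, and a value above 0 means that a window replicated mostly early in S phase.

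Mammalian chromosomes replicate in domains that fire together at a characteristic time, and early domains are mostly those with active chromatin. The domain that holds Dppa2, Dppa4 and Morc1 replicates early in pluripotent cells and late after differentiation. Dppa2 and Dppa4 are DNA-binding proteins of pluripotent cells, and Morc1 is an ATPase of the MORC family needed for silencing transposons in the male germ line. Earlier work of the authors had traced the early timing to segments named A, B and C, known as early replication control elements. The study asked which smaller sites inside them, transcription factor binding sites or transcription start sites, account for it. The promoter of Morc1 lies at B and the start site called C-TSS lies at C.

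The B-TSS deletion removed 140 bp at chr16:48431257-48431396 (mm10). In the GENCODE annotation this is inside exon 1 of Morc1 (plus strand, chr16:48431237-48630900). It began 20 bp after the annotated start and took 84 bp of the 5′ UTR and the first 56 coding bases, start codon included, leaving 20 bp of the exon on the left and 6 bp on the right. The deleted stretch had a GC content of 56.4% and 8 CpG dinucleotides. The C-TSS deletion removed 2049 bp at chr16:48611123-48613171, 179886 bp into the gene and overlapping Morc1 coding sequence. Its GC content was 44.6%, with 18 CpG dinucleotides. The guide sequences are shown because their cut sites set the ends of both deletions. Each reads 5′ to 3′, with the protospacer-adjacent motif (PAM) in capitals, and each had 1 exact site on chromosome 16 of mm10.
B-TSS-G1, chr16:48431251-48431273, minus strand: cacgcctacgtccacgcgtaCGG
B-TSS-G2, chr16:48431391-48431413, minus strand: tggaaactcacgaattcgcgTGG
C-TSS-G1, chr16:48611106-48611128, plus strand: ttctggccatgtttggttagAGG
C-OSN-1-G1, chr16:48613166-48613188, minus strand: gagtaactcaggcaaaacgtTGG

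The Morc1 gene body touches 5 windows, with B-TSS in the first of them and C-TSS in the last. Because the deposited profiles were smoothed over 300 kb, neighbouring windows are not independent and neither deletion can be resolved within the gene. Between 74.4% and 81.8% of the windows of the 8 profiles held a value, against a median of 88.1% (range 73.8% to 93.8%) in the 124 other allele profiles. The table gave ratios only, so read depth is unknown. Correlations between the profiles lay between 0.968 and 0.984 for the same parental genome (12 pairs) and between 0.928 and 0.950 for different ones (16 pairs). In comparisons of musculus alleles with CON, parental genome and deletion cannot be told apart. The unmodified musculus alleles of 3 other libraries (clone 50 of CR11.8k and 2 libraries of clone C4 of CTSS) were therefore used as a second reference, and the CAST allele of C11 was set against other CAST alleles. Only RT was analysed here, so the cell type was not checked against marker genes.

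The gene body of Morc1 replicated later on all 5 deleted alleles than on any control allele, and RT stayed above 0 on each of them. Mean RT over the gene body was 0.97 on the CON allele of A10, 1.11 on that of G3 and 0.91 on that of H11. It was 0.62 on the musculus allele of A10 and 0.48 on the CAST allele of C11, the alleles that lacked B-TSS alone. With both sites deleted it was 0.31 in C11, 0.77 in G3 and 0.37 in H11. The alleles without B-TSS averaged 0.55 ± 0.10 (SD, n = 2), those without both sites 0.48 ± 0.25 (SD, n = 3) and CON 1.00 ± 0.10 (SD, n = 3). The deleted and CON values did not overlap, and G3 stood closest to CON. Among 50 unmodified CAST alleles, which include CON, values ranged from 0.67 to 1.36. G3 lay inside this range and the other deleted alleles below it.

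**Figure D1:**
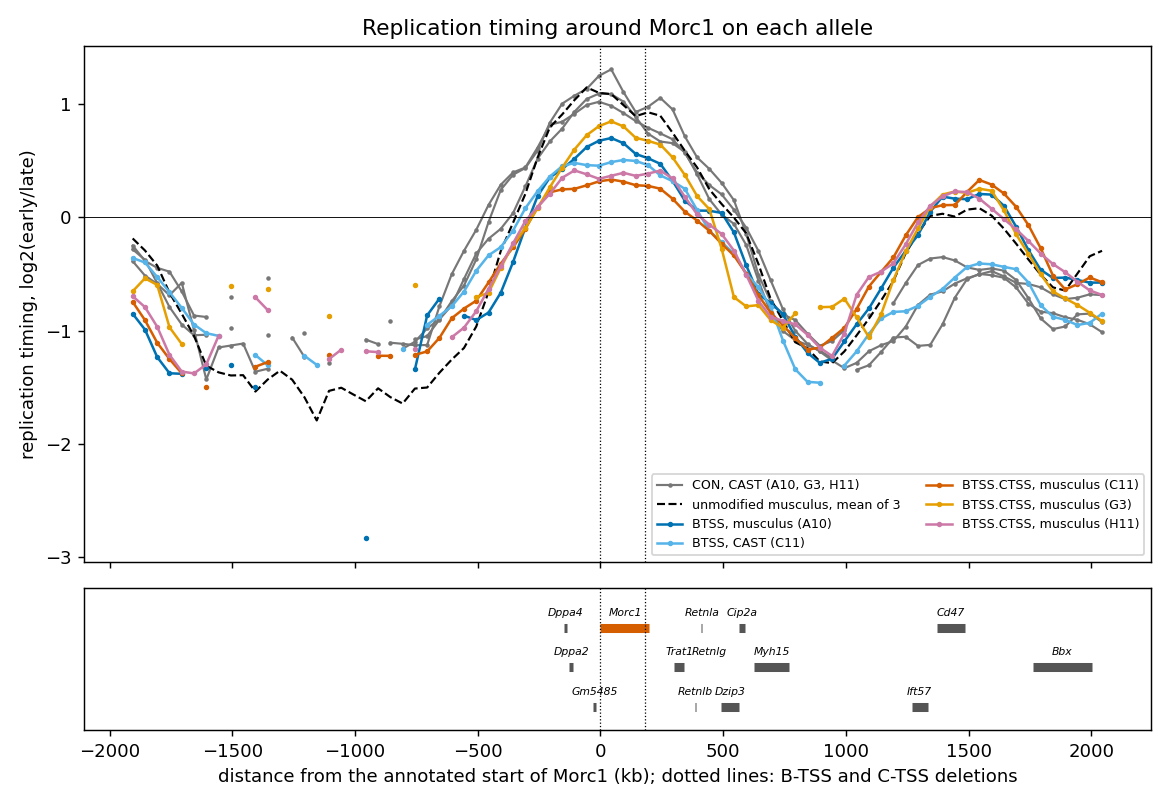
RT, log2(early/late), in 50 kb windows against the distance from the annotated start of Morc1 in kb, for the 5 deleted alleles (colored), the 3 CON alleles (gray) and the mean of the 3 unmodified musculus alleles (dashed), with the protein-coding genes of the interval below. At their earliest window the deleted alleles reached 0.33 to 0.85 and the CON alleles 1.02 to 1.31.

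The musculus reference gave a like picture over Morc1. The unmodified musculus alleles had a gene body RT of 1.00 ± 0.04 (SD, n = 3), between 0.95 and 1.03, and the 4 deleted musculus alleles 0.52 ± 0.22 (SD, n = 4). On the unmodified side the units are cultures, since clone C4 gave 2 of them. All 4 deleted alleles were below all 3 unmodified ones, with a difference of -0.48 (two-sided exact permutation test, p = 0.0571, adjusted p = 0.176 over the 21 exact tests made; the smallest p this design allows is 0.0286). Over the core of the domain, 8 windows from -231 to 169 kb around the start of Morc1, the means were 0.46 ± 0.17 (SD, n = 4) and 0.99 ± 0.03 (SD, n = 3). This difference of -0.53 reached the smallest p (exact permutation test, p = 0.0286, adjusted p = 0.15). With clones as units there were too few units for any outcome to pass 0.05, so that setting could not test the difference. Of the 21 exact tests, 4 passed 0.05 before adjustment and 0 after it.

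The CAST allele of C11 lacked B-TSS alone and was the deleted allele that could be set against many unmodified CAST alleles. Its gene body RT of 0.48 was below that of each of the 50 unmodified CAST alleles, 3 of which were CON, which ranged from 0.67 through a median of 0.97 to 1.36. The difference from their mean was -0.51 (exact permutation test, p = 0.0196, the smallest possible with 1 allele against 50; adjusted p = 0.15). Over the core of the domain the allele stood at 0.46 and the lowest unmodified CAST allele at 0.68 (exact permutation test, p = 0.0196, adjusted p = 0.15). The deleted side is 1 library, and the unmodified alleles include repeat cultures of some clones.

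**Figure D2:**
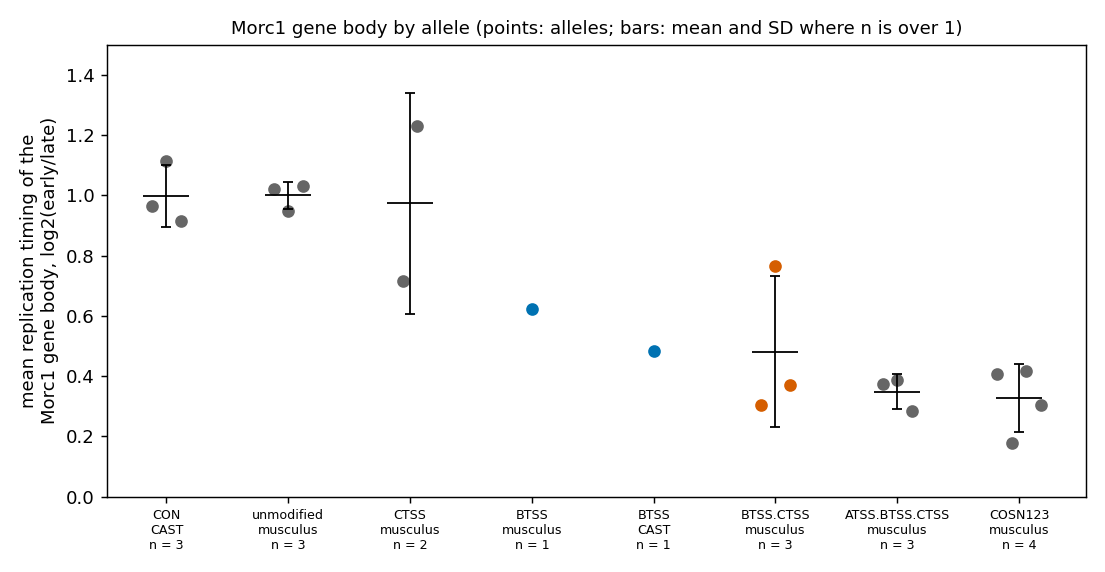
Mean RT of the Morc1 gene body, log2(early/late), by deletion and parental genome of the allele; each point is 1 allele of 1 library, and bars give the mean and SD where n is over 1. The BTSS and BTSS.CTSS alleles lie between 0.31 and 0.77, below the CON alleles (0.91 to 1.11) and the unmodified musculus alleles (0.95 to 1.03); the 2 CTSS alleles are at 0.71 and 1.23.

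The delay of the whole domain was measured as the area between the deleted and the CON curve over 40 windows, from -931 to 1069 kb around the start of Morc1, in log2 units times windows. A negative area means later than CON, and for musculus alleles parental genome and deletion cannot be told apart in it. The area was -10.5 for the musculus allele of A10 and -11.5 for the CAST allele of C11. With both sites deleted it was -14.3 in C11, -7.25 in G3 and -13.1 in H11, and -12.04 for their mean curve. Against this pooled control both alleles with B-TSS deleted alone fell inside the range of the 3 alleles with both sites deleted. Against the CON allele of the same library the area was -7.64 in A10, -9.97 in G3 and -13.5 in H11, so that A10 had the smallest delay of the 3; C11 has no CON allele. Each area was compared with those of 2 Mb regions elsewhere on the autosomes, which overlap and are not independent. None of 29537 regions (0.0%) had an area as large in size as the CAST allele of C11. At this locus itself, the 50 unmodified CAST alleles had areas against CON from -13.9 to 7.19, a range that includes the -11.5 of C11 (exact permutation test, p = 0.0588, adjusted p = 0.176). For the mean curve with both sites deleted the share was 2.93%, for A10 alone 6.99%, and for the mean of both B-TSS alleles 0.159%.

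On musculus the size of the area depended on the control. The 3 unmodified musculus alleles themselves had areas of -6.74 to -5.25 against CON, and the 4 deleted ones averaged -11.3 ± 3.14 (SD, n = 4). The difference was -5.14 (two-sided exact permutation test, p = 0.0571, adjusted p = 0.176). G3, at -7.25, was nearest to the unmodified alleles and had -2.36 with them as control. With the unmodified musculus alleles as control the area was -5.62 for A10, with 27.4% of regions as large. For the BTSS.CTSS mean curve it was -5.72, with 22.9% of regions as large. Over the inner 20 windows with this control, a pairing chosen after the values were seen, the areas were -7.03 (4.38% of regions) and -8.47 (0.943% of regions). In the late flank on the left the member libraries were less late than others. In the window starting at 47.65 Mb the CON alleles averaged -1.10 and the median of unmodified CAST alleles was -1.22.

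Window by window, alleles with both sites deleted were later than CON along most of the domain. In a limma fit to the 8 alleles, 21 of the 28 testable windows of the area were later in BTSS.CTSS at an adjusted p of 0.05, against 6.59% of all 31980 windows. The calls ran from the window at 47.9 Mb to that at 49 Mb and included all 5 windows of Morc1, with differences of -0.63 to -0.39 (SE 0.11 to 0.14, limma adjusted p = 0.00695 to 0.0389). The number fell to 12 without the musculus allele of C11 or of H11 or the CON allele of H11, and to 10 without the CON allele of G3. With the parental genome as a covariate limma called 0 windows, later or earlier, and 14 of the 28 were later at an unadjusted p of 0.05 (3.12% of all windows). The differences over Morc1 were then -0.85 to -0.45, no smaller than without the covariate, with wider SEs of 0.21 to 0.25. Only the BTSS set holds both parental genomes, A10 on musculus and C11 on CAST, so the covariate is set by these deleted alleles. They are of different clones, so this fit cannot tell parental genome from clone. For BTSS against CON limma called 0 of 31980 windows in either direction, with a smallest adjusted p of 0.283. At an unadjusted p of 0.05, 22 of the 28 windows were later in BTSS, including all 5 of Morc1 (-0.55 to -0.34), where 3.8% of all windows were. Without the CAST allele of C11, 9 of these windows passed the adjusted threshold, but BTSS is then 1 musculus allele against CAST controls, its spread is taken from the other groups, and parental genome and deletion cannot be told apart.

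Against the unmodified musculus alleles, limma called 18 of 32 windows of the area later in the 4 deleted musculus alleles, where 8.42% of all windows were, and 1 earlier, where 5.3% were. All 5 windows of Morc1 were among the later ones (-0.56 to -0.42, limma adjusted p = 0.00519 to 0.0168). The fit counted the cultures of clone C4 as separate replicates. In 23 of the 28 windows with values in all 8 member alleles, the 5 deleted alleles lay below all 3 CON alleles, and 4.26% of all windows did the same.

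**Figure D3:**
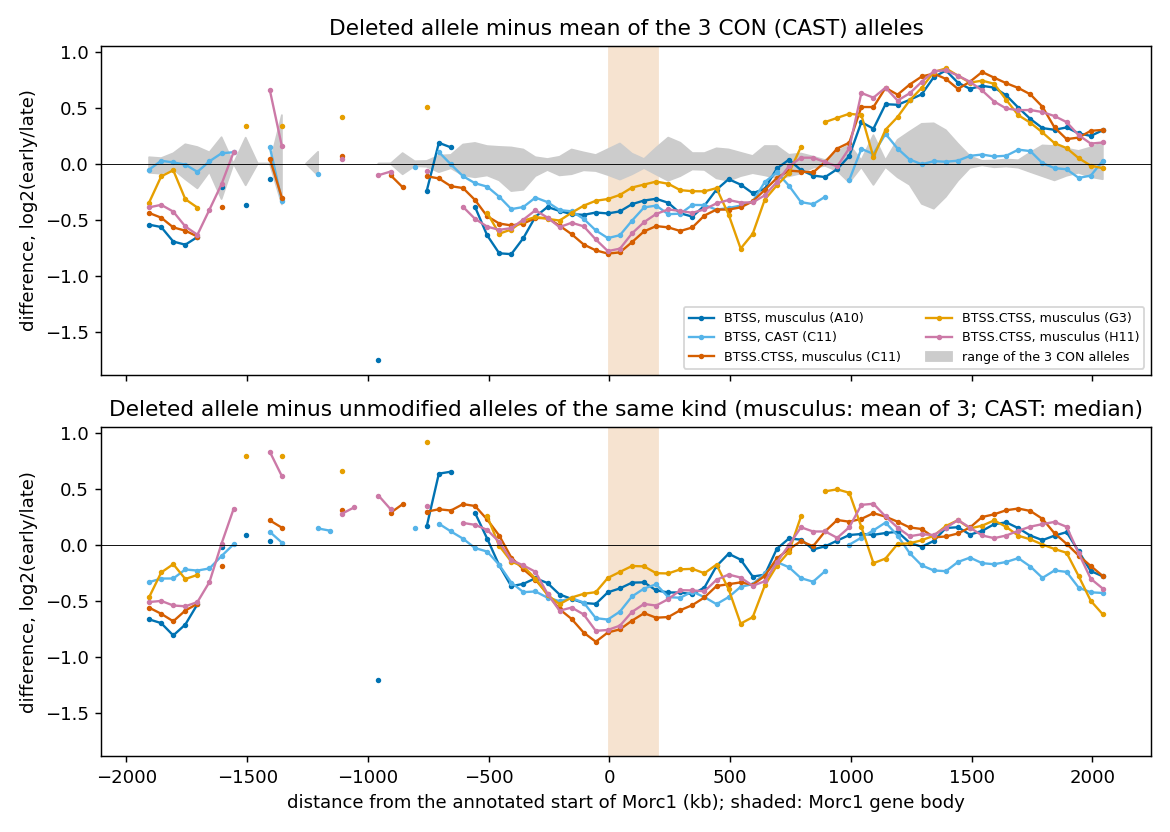
Difference in RT, log2(early/late), against the distance from the annotated start of Morc1 in kb, with the Morc1 gene body shaded. Above, each deleted allele minus the mean of the 3 CON alleles, whose range is in gray; below, each deleted allele minus unmodified alleles of its own parental genome, where A10, C11 and H11 on musculus are lowest just before Morc1 (-0.53, -0.86 and -0.77) within the area.

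The delay was large around Morc1 but was not limited to it. Within the area, the CAST allele of C11 differed most from CON in the window at 48.4 Mb, which holds B-TSS (-0.66), and the musculus alleles of C11 and H11 did so too (-0.80 and -0.78). A10 had its largest delay at 48 Mb (-0.81) and G3 at 48.95 Mb (-0.76). The window at 48 Mb lies on the left border of the domain, where unmodified musculus alleles were themselves late. Over the 6 border windows, from -581 to -281 kb, the unmodified musculus alleles had an RT between -0.53 and -0.46. A10 stood at -0.63 and BTSS.CTSS at -0.48 ± 0.05 (SD, n = 3), against 0.00 ± 0.14 (SD, n = 3) for CON. Against the unmodified musculus alleles and within the area, A10 (-0.53), C11 (-0.86) and H11 (-0.77) were most delayed in the window at 48.35 Mb. This window lies between Dppa2 and Morc1. The largest delay of G3 (-0.70) within the area lay at 48.95 Mb.

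Among the intervals of the area set from the genes, the differences from unmodified musculus alleles were largest from Dppa4 to Morc1. Outside the area, from -1931 to -1681 kb, A10 differed by -0.68, more than in any of these intervals. BTSS.CTSS differed there by -0.47 ± 0.16 (SD, n = 3). In the windows of Dppa4 and Dppa2 A10 differed by -0.50 and BTSS.CTSS by -0.59 ± 0.13 (SD, n = 3), and in the window between Dppa2 and Morc1 by -0.53 and -0.68 ± 0.23. Over Morc1 itself the differences were -0.38 and -0.52 ± 0.25, and right of Morc1 to 1069 kb they were -0.14 and -0.15 ± 0.05. Left of Dppa4 they averaged -0.02 and -0.01 ± 0.07, a mean over windows that were later near the domain and earlier in the flank. The CAST allele of C11 differed from CON by -0.21 left of Dppa4, -0.46 over Dppa4 and Dppa2, -0.60 between Dppa2 and Morc1, -0.52 over Morc1 and -0.29 to its right.

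**Figure D4:**
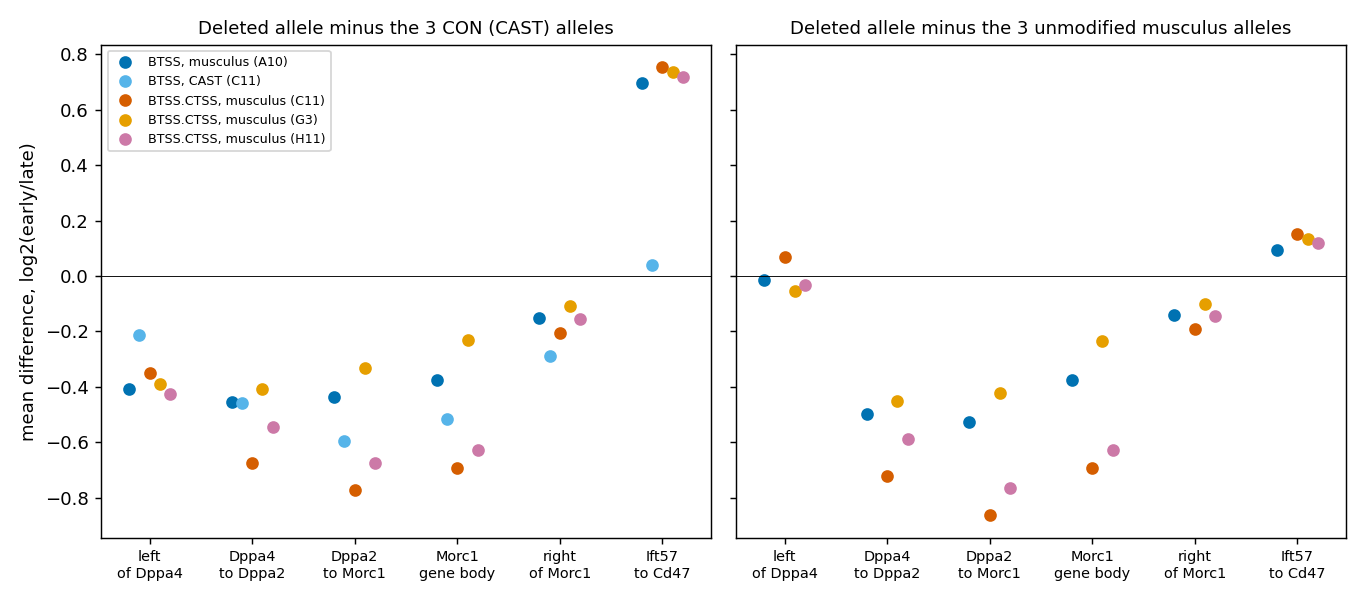
Mean difference in RT, log2(early/late), of each deleted allele in 6 intervals ordered along the chromosome; on the left against the 3 CON alleles, on the right, for musculus alleles, against the 3 unmodified musculus alleles. Over Morc1 the musculus values are -0.69 to -0.23 with either control, and left of Dppa4 and over Ift57 and Cd47 they lie between -0.06 and 0.15 with the musculus control.

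The delay-weighted centre, the mean position of the delay, lay at -49.7 kb from the start of Morc1 in A10 and at 142 kb on the CAST allele of C11. In BTSS.CTSS it lay at -14.2 kb in C11, 48.4 kb in G3 and -23.0 kb in H11. The BTSS values lay on both sides of the BTSS.CTSS values (difference of means 42.4 kb, exact permutation test, p = 0.7, adjusted p = 0.817, where the smallest possible p is 0.1). With unmodified musculus alleles as control the centres fell inside the gene, at 63.8 kb in A10, 117 kb in C11, 166 kb in G3 and 113 kb in H11. The middle of the area itself lies inside the gene, so an even delay would also be centred there. A centre in the gene therefore does not by itself place the delay on Morc1.

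The early domain was also narrower. The stretch with RT above 0 was 981 ± 89.8 kb wide on CON (SD, n = 3), 868 to 905 kb on the 3 unmodified musculus alleles, 795 kb in A10, 738 kb on the CAST allele of C11 and 697 ± 39.4 kb in BTSS.CTSS (SD, n = 3). All 5 deleted alleles were narrower than each of these 6 unmodified alleles. The 2 cultures with CTSS deleted alone (musculus, clone C12) had widths of 705 and 887 kb, the lower of them below A10 and the CAST allele of C11. The right end of the stretch lay at 48.84 Mb on the CAST allele of C11 and at 48.81 to 48.89 Mb in BTSS.CTSS. On CON it lay at 48.94 to 49.00 Mb. In A10 it lay at 48.94 Mb, at the lower end of the CON range.

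Of the 14 protein-coding genes within the 80 windows examined, 10 had all 5 deleted alleles later than all 3 CON alleles, where 4.26% of all windows did. Neighbouring genes share windows or smoothed signal, so these are not 10 separate results. Dppa4 had an RT of 0.88 ± 0.11 on CON (SD, n = 3), 0.44 ± 0.02 in BTSS (SD, n = 2) and 0.35 ± 0.10 in BTSS.CTSS (SD, n = 3). For Dppa2 the mean RT was 0.97 on CON, 0.50 in BTSS and 0.42 in BTSS.CTSS. Gm5485, just before Morc1, had 1.09, 0.55 and 0.48 in the same order. As for Morc1, both sets of deleted alleles lay below CON at these genes.

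To the right of Morc1 the same held for Trat1, an adaptor of the T cell receptor, with an RT of 0.69 on CON, 0.26 in BTSS and 0.27 in BTSS.CTSS. The resistin-like genes Retnlb and Retnla, which share 1 window, had a mean of 0.44 on CON and 0.06 in both deleted sets, and Retnlg had 0.29 on CON, -0.03 in BTSS and -0.04 in BTSS.CTSS. Dzip3, a ubiquitin ligase, and Cip2a, an inhibitor of protein phosphatase 2A, lay at the right edge. Their differences from CON were -0.27 and -0.29 in BTSS and -0.45 and -0.47 in BTSS.CTSS. Myh15, a myosin heavy chain gene in late-replicating sequence, had 4 of 5 deleted alleles below CON, with mean differences of -0.11 in BTSS and -0.17 in BTSS.CTSS.

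Ift57, of the ciliary transport machinery, Cd47, a surface protein that restrains phagocytosis, and Bbx, an HMG-box factor, did not follow this pattern. In the domain of Ift57 and Cd47, 1219 to 1619 kb right of the start of Morc1, the deleted musculus alleles were earlier than CON, at 0.06 in A10 and 0.10 ± 0.02 in BTSS.CTSS (SD, n = 3) against -0.63 ± 0.19 (SD, n = 3). The unmodified musculus alleles ranged from -0.21 to 0.14 and overlapped the deleted ones. The CAST allele of C11 was at -0.59, inside the CON range. Of the 52 testable windows examined, limma called 13 earlier in BTSS.CTSS than in CON, where 7.88% of all windows were.

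B-TSS alone and B-TSS plus C-TSS did not differ beyond the spread between alleles. Clone C11 gave an allele to each set, and the tests below treat these alleles as independent. The mean gene body RT differed by 0.07 (exact permutation test, p = 0.8, adjusted p = 0.884, smallest possible p = 0.1), and the mean of single-allele areas by 0.580 (exact permutation test, p = 1, adjusted p = 1). In limma the 5 windows of Morc1 differed by 0.04 to 0.08. Their 95% confidence intervals reached from -0.26 to 0.41, and the data do not show that the deletions act alike. Of the 28 windows of the area 0 passed the adjusted threshold (2 later, or 0.00625%, and 0 earlier of 31980 in all), and 1 was later in BTSS at an unadjusted p of 0.05, where 5.52% of all windows were. The area between the mean curves was 0.818, and 77.5% of regions had one as large.

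Within clone C11 both genotypes were measured in the same cells. Over Morc1 its musculus allele, with both sites deleted, minus its CAST allele, with B-TSS deleted alone, was -0.18. In the libraries whose CAST allele was unmodified the same difference was -0.34 in A10, -0.35 in G3 and -0.54 in H11. The C11 difference sets musculus against CAST in 1 library and has no replicate. Among the BTSS.CTSS clones the gene body RT spanned 0.31 to 0.77, which is wider than the gap between the means of the deletions.

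The BTSS.CTSS alleles were also set against musculus alleles with related deletions. The areas and centres of these lines were taken against the CON alleles of A10, G3 and H11, not against CAST alleles of their own libraries. Offsets between libraries were thus not removed. CTSS alone (clone C12, 2 cultures) had a gene body RT of 0.71 and 1.23, and the lower of these was under the 0.77 of G3 (difference of means -0.49, exact permutation test, p = 0.3, adjusted p = 0.573, smallest possible p = 0.1). The areas of these cultures were -14.6 and -3.38, so that 1 of them was as delayed as the most delayed BTSS.CTSS allele, at -14.3 (exact permutation test, p = 0.7, adjusted p = 0.817). ATSS.BTSS.CTSS, with the start site at A deleted as well, had 0.35 ± 0.06 (SD, n = 3 clones; difference 0.13, exact permutation test, p = 0.6, adjusted p = 0.788). Its areas, -23.3 to -17.5, did not overlap those of BTSS.CTSS, -14.3 to -7.25 (exact permutation test, p = 0.1, the smallest possible, adjusted p = 0.233). Its delay was centred at -124 ± 78.4 kb from the start of Morc1, against 3.74 ± 38.9 kb (exact permutation test, p = 0.1, adjusted p = 0.233). COSN123, without the 3 sites at C bound by Oct4, Sox2 and Nanog (1 clone, 4 cultures), had 0.33 ± 0.11 over Morc1 (SD, n = 4; difference 0.15, exact permutation test, p = 0.429, adjusted p = 0.75). Its areas were -18.4 to -16.7 (exact permutation test against BTSS.CTSS, p = 0.0286, adjusted p = 0.15). With each profile centred on its own median, the differences from both lines in gene body RT and area turned sign. Own medians were 0.13 to 0.30 in BTSS.CTSS, -0.17 to -0.16 in ATSS.BTSS.CTSS and -0.14 to 0.10 in COSN123. Over the windows with a value in every profile the medians were 0.19 to 0.24, 0.18 to 0.23 and 0.17 to 0.22. Centred on those windows, a choice made after the values were seen, these differences kept their sign.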

How the data were processed

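E/L Repli-seq values were used as the authors deposited them, as log2 early/late ratios in 50 kb windows of the 19 autosomes. Per the study's methods, reads were trimmed (TrimGalore), aligned to N-masked mm10 (bowtie2), split by allele (SNPsplit) and counted (bedtools), and ratios were scaled, quantile normalized and loess-smoothed over 300 kb; versions are not given in the sources used here. Smoothing makes neighbouring windows dependent. The 8 profiles as deposited still differed in their medians (0.12 to 0.30) and SDs (0.879 to 0.953). Repeat runs of a library were averaged.

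Areas were compared with autosomal 2 Mb regions having values in 80% of windows or more, leaving out the examined stretch of chromosome 16 and regions where 25% of windows or more differed by 0.5 between alleles of other libraries. Windows with a value in all alleles compared were fitted with limma 3.58.1 (R 4.3.3), Benjamini-Hochberg adjusted, threshold 0.05. Single values were tested by two-sided exact permutation of alleles. Each allele came from its own library, except that C11 gave an allele to both sets in BTSS against BTSS.CTSS. The p-values measure the spread between clones or, where stated, cultures. Scripts were tested on simulated data. Members, intervals and lists were chosen with earlier results of these data known. All protein-coding genes of the examined stretch are named (GENCODE vM21).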

Additional observations from a re-analysis of the deposited data

Results flagged for a closer look

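Interval means and the area were examined in 2 groups (the 4 deleted musculus alleles and all 5 deleted alleles, 10 measures each) for a value far from the rest, which chance alone gives in about 1 of 20 groups. One value stood apart. In the domain of Ift57 and Cd47 the CAST allele of C11 had a mean RT of -0.59, while the 4 deleted musculus alleles lay between 0.06 and 0.12. The CON alleles, also CAST, were at -0.82 to -0.43 there.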

How the results depend on the processing

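No paired analysis was possible by replicate number because the 4 libraries share no replicate number to use as a block. Alleles do pair within a library, and the musculus minus own CON differences were -0.34, -0.35 and -0.54 over Morc1 in A10, G3 and H11. The main limma fit did not use this pairing, which was fitted as an alternative with library as a random block (consensus correlation 0.386). Of 368 alternative values for 36 results, 278 stayed the same, 23 became stronger, 42 became weaker, 17 turned sign and 8 centres moved. For tests and areas, stronger or weaker means that the value newly passed or no longer passed the threshold. For counts of later windows it means that the count rose or fell by more than a set factor, with no threshold crossed. Unless a cause is given, it was not tested. With profiles centred on their own median, the deleted minus unmodified musculus difference was -0.71 over Morc1 and -13.9 in area, and the C11 CAST area -16.1, all newly past the threshold, while BTSS.CTSS minus ATSS.BTSS.CTSS turned to -0.24 (Morc1), -0.23 (core) and -4.92 (area) and BTSS.CTSS minus COSN123 to -0.074, -0.21 and -2.69. Centred on the windows shared by all profiles, a choice made after seeing the data, of these the core difference from COSN123 turned sign (-0.011). Own medians were 0.13 to 0.30 in the deleted musculus alleles and -0.12 to 0.05 in the unmodified ones. On the shared windows the medians were 0.18 to 0.24 and 0.24 to 0.28. Whether these offsets account for the larger differences after centring was not tested. With clones as units the musculus core difference was -0.54 and the COSN123 area difference 5.97. Neither passed, since with so few clones no outcome could pass 0.05. The C11 CAST area (-10.1) newly passed. Over the inner 20 windows the areas were -8.11 (deleted musculus), -9.14 (C11 CAST) and -7.67 (A10), newly past the threshold, the COSN123 differences were 3.68 in area, no longer past it, and -77.1 kb in centre, newly past it, and the BTSS minus BTSS.CTSS centre turned to -8.23 kb. The A10 area also passed with missing windows interpolated (-13.0), one-sided (-10.5) and with the musculus control over the inner windows (-7.03). The area of both B-TSS alleles was -7.64 against the own library's CON, which leaves A10 alone. The BTSS.CTSS area no longer passed with all CAST alleles (-10.5) or unmodified musculus alleles (-5.72) as control, over all 80 windows (-2.27), interpolated (-11.0) or with all regions kept (-12.04). Centres moved to 63.8 kb (A10) and 128 kb (BTSS.CTSS) with the musculus control, to -10.2 (A10), 65.5 (C11 CAST) and 37.4 kb (BTSS.CTSS) over the inner windows, and to -85.5 kb (both B-TSS alleles) against the own CON. With the parental genome as covariate 0 windows were later in BTSS.CTSS, in the area and in all. With library as a random block the autosomal counts of later windows were 2 (BTSS), 4079 (BTSS.CTSS) and 11 (difference); without the filter on missing values 2 (BTSS) and 4 (difference); and on musculus alone 509 (BTSS).

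Leaving out 1 library or allele at a time gave -0.60 to -0.47 for the musculus core difference and 3.81 to 7.36 for the COSN123 area. BTSS minus BTSS.CTSS ranged from -0.016 to 0.21 over Morc1, -0.80 to 2.74 in area of single alleles, -0.904 to 2.36 in area of mean curves and -53.5 to 138 kb in centre. BTSS.CTSS minus CTSS ranged from -8.19 to 3.0003 in area, minus ATSS.BTSS.CTSS from -0.011 to 0.22 over Morc1, and minus COSN123 from -0.091 to 0.093 in the core. The area ranged from -12.5 to -9.87 for both B-TSS alleles (6.99% of regions as large without the C11 CAST allele) and from -13.8 to -10.4 for BTSS.CTSS (6.30% without C11, 6.33% without the CON allele of G3), and the centre of both B-TSS alleles from -49.7 to 142 kb. Later windows against CON numbered 10 to 24 in the area and 982 to 3395 in all for BTSS.CTSS, 0 to 9 and 0 to 1874 for BTSS (the highest with 1 musculus allele left in BTSS), and 0 to 1685 in all for the difference. Read depth is unknown, and 1 library per clone limits every comparison.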

Other observations

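In the 5 windows from -1931 to -1681 kb, beyond the late flank left of Morc1, the deleted musculus alleles were later than the unmodified ones. Mean RT was -1.17 in A10, -1.08 in C11, -0.77 in G3 and -1.01 in H11, against -0.50 to -0.45 on the 3 unmodified musculus alleles. The groups did not overlap, and limma called all 5 windows later in the 4 deleted alleles (adjusted p = 0.00197 to 0.00754), where 8.42% of all windows were. The interval was picked after its values were seen. The CAST allele of C11 was at -0.55 and the CON alleles at -0.59 to -0.44. These lay inside the range of the 50 unmodified CAST alleles, which include CON, of -0.80 to 0.30. They were later than the median of those alleles, -0.27, so the CAST alleles of the member libraries were also on the late side. In musculus alleles of the related lines RT was -0.59 and -0.55 in CTSS, -0.80 to -0.58 in ATSS.BTSS.CTSS and -0.89 to -0.61 in COSN123. The source of the shift was not tested.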
